A study of Mus musculus with 6 samples.

Results

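The members described here were 10 transcription factor genes of the primitive streak, tail bud and presomitic mesoderm, namely *T* (Brachyury), *Eomes*, *Mixl1*, *Mesp1*, *Nkx1-2*, *Cdx1*, *Cdx2*, *Cdx4*, *Tbx6* and *Msgn1*. They were chosen by name, for their roles in the posterior embryo, with earlier results of these data known. They were found as 10 of the 35565 Ensembl gene identifiers of the count table. Expression was measured by bulk RNA-seq in gastruloids, which are aggregates of mouse embryonic stem cells (mESCs) that elongate and form the rudiments of a body axis in culture. Both groups came from the TBV2 mESC line of the 129/SvP strain, were collected at day 5 and had received a pulse of the GSK3 inhibitor CHIR99021, which turns WNT signalling on, so the effect of the pulse itself cannot be read from these libraries. The 3 Control (NT) libraries came from cells with a non-targeting construct, which the sample labels list as wild type, and the 3 *T-UCstem1* KD-1 libraries came from 1 clone with a knockdown (KD) of the long non-coding RNA *T-UCstem1*. Because each group is a single cell line, a difference between the groups cannot be told apart from a difference between the lines. *T-UCstem1* expression was not analysed here, so the knockdown was not checked in these libraries.

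In the embryo, WNT and Nodal signals switch on *T*, *Eomes* and *Mixl1* in the primitive streak, the strip of epiblast through which cells leave to become mesoderm and endoderm. Later, the tail bud holds neuromesodermal progenitors, which carry T, CDX and NKX1-2 proteins and give rise to spinal cord and to presomitic mesoderm. Commitment to presomitic mesoderm is marked by *Tbx6* and *Msgn1*, and the segmentation clock then cuts this tissue into somites.

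The libraries held 20982249, 34694406 and 56674906 counts in Control (NT) and 41180012, 42407550 and 85561026 counts in KD-1, and are named below by their depth within the group. Levels are given as CPM, counts scaled to library size after TMM normalization, and a count of 0 allows a level of up to 0.145 CPM in the shallowest library and 0.0345 CPM in the deepest, taking 3 counts as the limit. The Control library of middle depth stood apart: 13.7% of the genes tested differed by more than 1.5-fold between it and the Control library of lowest depth and 8.47% between it and that of highest depth, against 3.87% between those 2 libraries and at most 1.48% within KD-1. The level of *T* and the ratios of other members to *T* are given with and without it.

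Of the 10 members, 7 had enough counts to be tested with edgeR's quasi-likelihood test, and *Mixl1*, *Mesp1* and *Msgn1* did not. *Nkx1-2* and *Eomes* were higher in KD-1, *Cdx1*, *Cdx2* and *Tbx6* were lower, and *T* and *Cdx4* did not pass the threshold, set at 0.05 for the adjusted p together with a change of more than 1.5-fold either way. The 5 calls are 71.4% of the members tested, and over all 15110 genes tested 37.7% were called, 19.7% higher and 18.1% lower. The median log2 fold change of the tested members was -0.31, beside -0.01 over all genes tested, and their median absolute log2 fold change was 0.93, beside 0.49. The groups did not overlap in CPM for 5 of the 7 tested members, and the same held for 70.6% of all genes tested. In bulk libraries, fewer cells of a type and less RNA per cell cannot be told apart.

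**Figure D1:**
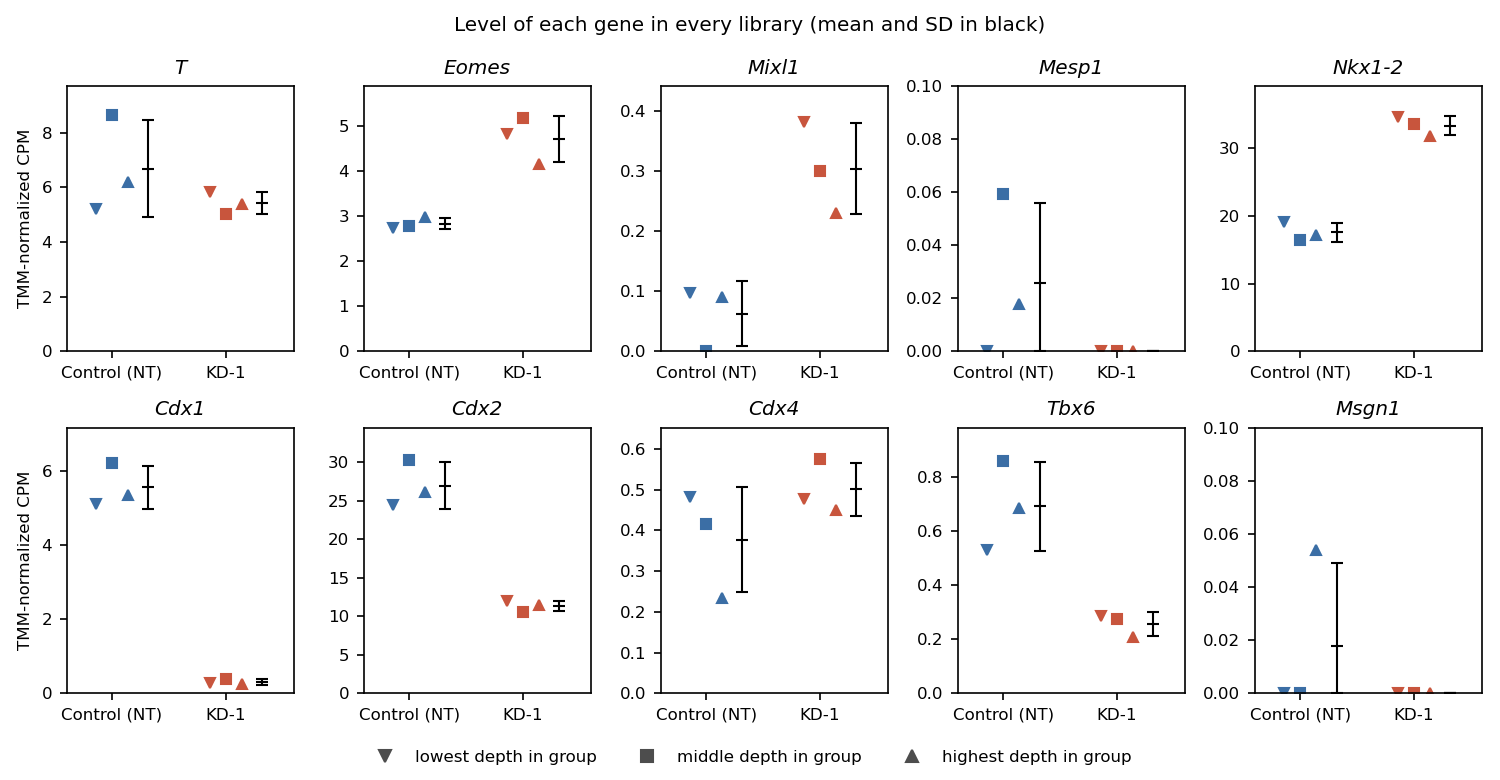
TMM-normalized CPM of each of the 10 members on linear axes that start at 0 and differ between panels, with 1 point per library (shape gives its depth within the group) and black bars for the mean and SD (n = 3), not drawn below 0. The Control libraries lie at 5.11 to 6.22 CPM and the KD-1 libraries at 0.242 to 0.391 CPM for *Cdx1*, while the groups overlap for *T*.

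**Figure D2:**
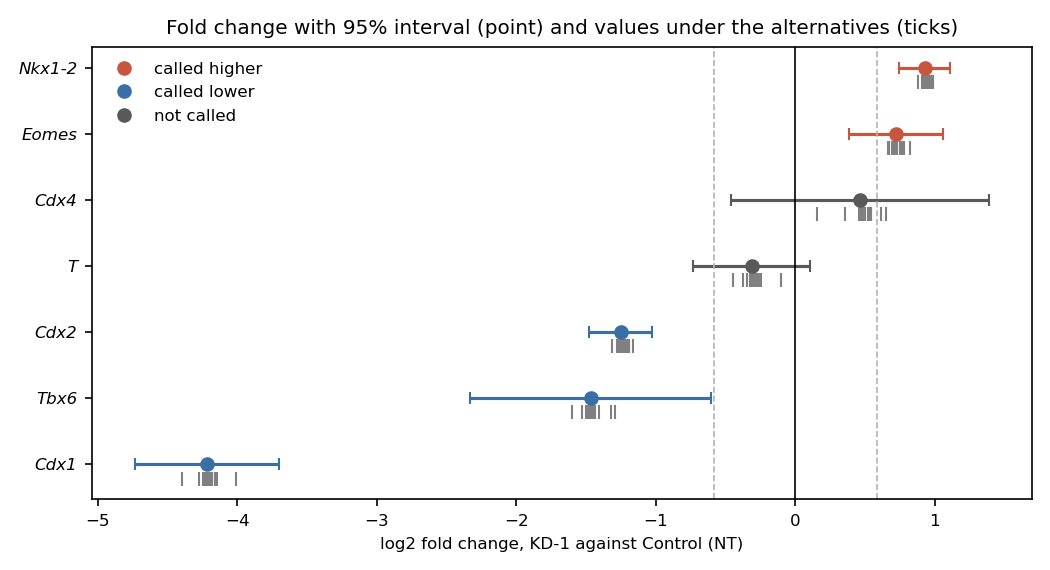
Log2 fold change of KD-1 over Control (NT) for the 7 tested members, with 95% confidence intervals from edgeR, small ticks for the values under the 18 alternatives and dashed lines at 1.5-fold in each direction. The intervals of *T* and *Cdx4* include 0, and *Cdx1* lies farthest from 0 at -4.22.

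The upstream sequences of 4 members are shown as examples of different patterns: *T* did not pass the test, *Msgn1* was at or near 0, *Cdx2* was lower in KD-1, and *Cdx4* was low in both groups. Each run is the 250 bases before the RefSeq start on GRCm38.p6, in the direction of the gene, at chr17:8434173-8434422 on the plus strand (*T*), chr12:11208949-11209198 on the minus strand (*Msgn1*), chr5:147307250-147307499 on the minus strand (*Cdx2*) and chrX:103321148-103321397 on the plus strand (*Cdx4*). Capitals mark matches on either strand to a LEF/TCF motif (CTTTG followed by AA, AT, TA or TT), a CDX motif (TTTATGG) or the octamer (ATGCAAAT) read by POU factors.
T: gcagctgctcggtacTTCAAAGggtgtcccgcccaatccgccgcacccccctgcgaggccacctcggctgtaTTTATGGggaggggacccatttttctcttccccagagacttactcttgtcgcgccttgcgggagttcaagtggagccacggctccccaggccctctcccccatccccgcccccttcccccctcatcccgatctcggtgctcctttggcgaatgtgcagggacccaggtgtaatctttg
Msgn1: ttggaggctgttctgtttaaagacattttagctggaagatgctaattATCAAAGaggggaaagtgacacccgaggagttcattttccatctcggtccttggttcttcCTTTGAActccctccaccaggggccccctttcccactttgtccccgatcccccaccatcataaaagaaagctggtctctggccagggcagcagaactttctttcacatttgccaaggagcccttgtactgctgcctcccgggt
Cdx2: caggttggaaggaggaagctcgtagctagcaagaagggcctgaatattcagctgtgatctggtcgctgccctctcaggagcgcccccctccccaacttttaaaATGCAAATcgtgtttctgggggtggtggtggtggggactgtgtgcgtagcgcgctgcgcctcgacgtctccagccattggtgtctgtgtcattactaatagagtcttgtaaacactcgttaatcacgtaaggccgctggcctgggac
Cdx4: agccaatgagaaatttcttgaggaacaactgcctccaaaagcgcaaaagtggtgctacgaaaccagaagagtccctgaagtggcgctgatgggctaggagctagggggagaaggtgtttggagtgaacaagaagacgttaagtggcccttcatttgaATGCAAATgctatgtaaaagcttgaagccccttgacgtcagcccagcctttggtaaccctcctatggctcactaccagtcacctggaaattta
The *T* window held a LEF/TCF match on the minus strand 235 to 229 bases before the start and a CDX match 178 to 172 bases before it. The *Msgn1* window held LEF/TCF matches 203 to 197 and 143 to 137 bases before the start, the former on the minus strand. *Cdx2* and *Cdx4* each held 1 octamer, at 147 to 140 and 93 to 86 bases before the start. Windows were found for 8 of the 10 members. A LEF/TCF match stood in 3 of the 8 (*T*, *Msgn1* and *Mesp1*) and in 14.8% of 32851 promoter windows of the same length, a CDX match in 1 of the 8 and 2.43% of all, and an octamer in 2 of the 8 and 1.6% of all. The T-box element AGGTGTGA was in none of the 8 and in 1.12% of all windows. The motifs were chosen with the sequences in view, and a match is a run of letters, not a measured site.

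Of the factors that act first in the streak, *T* encodes the T-box factor Brachyury, needed for posterior mesoderm and notochord. *T* (ENSMUSG00000062327, GRCm39 chr17:8653062-8661328, plus strand) measured 5.21, 8.64 and 6.21 CPM in the Control libraries of lowest, middle and highest depth and 5.84, 5.03 and 5.38 CPM in the KD-1 libraries in the same order. The groups overlapped, since the Control library of lowest depth lay below 2 of the KD-1 libraries, and the highest value was in the Control library that stood apart. The means were 6.69 ± 1.77 CPM in Control and 5.42 ± 0.407 CPM in KD-1 (SD, n = 3), a log2 fold change of -0.31 (SE 0.18, adjusted p = 0.166 by edgeR's quasi-likelihood test). Its 95% interval ran from -0.73 to 0.11, or from 0.603-fold to 1.08-fold, and 33.2% of all genes tested fell by more. Without the Control library of middle depth, the Control mean was 5.71 CPM and the log2 fold change -0.10 (edgeR adjusted p = 0.499). Without the Control library of lowest depth, it was -0.45 (edgeR adjusted p = 0.0449), still under the fold threshold.

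*Eomes* encodes a T-box factor of the early streak that directs cells to endoderm and anterior mesoderm. *Eomes* (ENSMUSG00000032446, GRCm39 chr9:118307280-118315200, plus strand) measured 2.75, 2.78 and 2.98 CPM in Control and 4.82, 5.17 and 4.16 CPM in KD-1, so every KD-1 library lay above every Control library. It was 1.65-fold higher in KD-1 (2.84 ± 0.124 against 4.72 ± 0.516 CPM, SD, n = 3), with a log2 fold change of 0.72 (SE 0.15, 95% interval 0.39 to 1.06, edgeR adjusted p = 0.00244). The call was lost when the test itself was made against 1.5-fold (glmTreat adjusted p = 0.208, where 13.8% of all genes tested were called higher) and when the log2 fold change had to pass 1 (where 12.9% were).

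*Mixl1* encodes a homeodomain factor of the streak that takes part in endoderm formation. *Mixl1* (ENSMUSG00000026497, GRCm39 chr1:180520608-180524599, minus strand) had 2, 0 and 5 counts in Control and 16, 13 and 20 counts in KD-1 and was removed by the filter on low counts. The groups did not overlap, at a mean of 0.0622 ± 0.0540 CPM in Control and 0.304 ± 0.0758 CPM in KD-1 (SD, n = 3). Of the 6 alternative fits that kept the gene, 5 called it higher, with log2 fold changes of 1.65 to 2.88 over the 6. With no filter the value was 2.24 (edgeR adjusted p = 0.0455, where 14.8% of genes were called higher) and with DESeq2 2.32 (adjusted p = 0.0355, where 17.6% were). It was also called without the Control library of lowest, middle or highest depth, where 20.3%, 20.1% and 19.2% of genes were called higher, and it was not called without the KD-1 library of highest depth (edgeR adjusted p = 0.0576). *Mixl1* lies on chromosome 1, where the 871 genes tested had a median log2 fold change of 0.49 and 40.2% were called higher, against -0.05 and 18% over the other autosomes. The part of this shift in the *Mixl1* values was not tested.

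*Mesp1*, which encodes a bHLH factor of the earliest cardiac and cranial mesoderm (ENSMUSG00000030544, GRCm39 chr7:79441989-79443536, minus strand), had 0, 2 and 1 counts in Control and 0 in every KD-1 library. Both groups lay at or under the limit of 3 counts per library, so no fold change is given. With no filter on low counts it was not called (edgeR adjusted p = 0.160).

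Among the neuromesodermal factors, *Nkx1-2* encodes a homeodomain factor of the caudal epiblast and of the progenitors of the tail bud. *Nkx1-2* (ENSMUSG00000048528, GRCm39 chr7:132196561-132201366, minus strand) measured 19.1, 16.4 and 17.1 CPM in Control and 34.6, 33.5 and 31.8 CPM in KD-1. The 2 groups were far apart relative to the spread within them, at means of 17.6 ± 1.42 and 33.3 ± 1.40 CPM (SD, n = 3). The gene was 1.90-fold higher in KD-1, with a log2 fold change of 0.93 (SE 0.08, 95% interval 0.75 to 1.11, edgeR adjusted p = 1.73e-05). The call held in 17 of 18 alternatives, the exception being the requirement of a log2 fold change over 1. *Nkx1-2* lies within the annotated span of *Fgfr2*, on the same strand and with 0 shared exon bases, and *Fgfr2* moved the other way by less than the fold threshold (57.3 ± 1.36 against 48.6 ± 2.11 CPM, log2 fold change -0.24, edgeR adjusted p = 0.00824).

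The 3 *Cdx* genes encode homeodomain factors that act together in posterior axis growth and activate posterior Hox genes, and they did not move alike. *Cdx1* (ENSMUSG00000024619, GRCm39 chr18:61151934-61169314, minus strand) measured 5.11, 6.22 and 5.36 CPM in Control and 0.286, 0.391 and 0.242 CPM in KD-1. The lowest Control value lay far above the highest KD-1 value. *Cdx1* was 18.6-fold lower in KD-1 (5.56 ± 0.579 against 0.306 ± 0.0765 CPM, SD, n = 3), with a log2 fold change of -4.22 (SE 0.23, 95% interval -4.73 to -3.70, edgeR adjusted p = 1.13e-06), and 0.649% of all genes tested fell by more.

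*Cdx2* (ENSMUSG00000029646, GRCm39 chr5:147237615-147244091, minus strand) also marks trophectoderm, the outer layer of the blastocyst. It measured 24.4, 30.3 and 26.1 CPM in Control and 11.9, 10.6 and 11.5 CPM in KD-1, with no overlap. *Cdx2* was 2.38-fold lower in KD-1 (26.9 ± 3.03 against 11.3 ± 0.688 CPM, SD, n = 3), with a log2 fold change of -1.25 (SE 0.10, 95% interval -1.48 to -1.03, edgeR adjusted p = 1.08e-05). *Cdx4*, the X-linked member (ENSMUSG00000031326, GRCm39 chrX:102365004-102374815, plus strand), measured 0.482, 0.414 and 0.235 CPM in Control and 0.477, 0.575 and 0.449 CPM in KD-1, and the groups overlapped. Its log2 fold change of 0.47 (SE 0.41, edgeR adjusted p = 0.338) had a 95% interval from -0.46 to 1.39, so neither a fall nor a rise was resolved at 121 counts over the 6 libraries. Without the Control library of highest depth the value was 0.16 (edgeR adjusted p = 0.741).

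Summed over the 3 genes, *Cdx* expression was 32.9 ± 3.6 CPM in Control and 12.1 ± 0.576 CPM in KD-1 (SD, n = 3), 2.71-fold lower. The share of *Cdx1* in the summed *Cdx* counts was 17.0%, 16.8% and 16.9% in the Control libraries and 2.26%, 3.39% and 1.99% in the KD-1 libraries. The exact 95% binomial intervals, which cover counting error only, reached no lower than 14.2% in any Control library and no higher than 5.37% in any KD-1 library, so the groups lay apart beyond counting error. *Cdx2* took 81.4%, 82.0% and 82.3% in Control and 94.0%, 91.6% and 94.3% in KD-1. *Cdx4* took 1.61%, 1.12% and 0.740% in Control and 3.76%, 4.98% and 3.69% in KD-1. The intervals of *Cdx4* overlapped between some Control and KD-1 libraries (0.774% to 2.94% in the shallowest Control library and 2.31% to 5.75% in the shallowest KD-1 library), so its shares were not all apart beyond counting error. The shares themselves did not overlap between the groups for any of the 3 genes, and each two-sided exact permutation test gave p = 0.1, the smallest p that 3 against 3 libraries allow. The share of *Cdx1* was 14.4 percentage points lower in KD-1, and those of *Cdx2* and *Cdx4* were 11.4 and 2.99 points higher. The 3 shares of a library add up to the whole, so a lower share of *Cdx1* means a higher share of the others together. They are therefore not separate results, and they restate that *Cdx1* fell by more than *Cdx2*. A higher share is not a higher level: *Cdx2* fell in CPM, and *Cdx4* was not called.

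**Figure D3:**
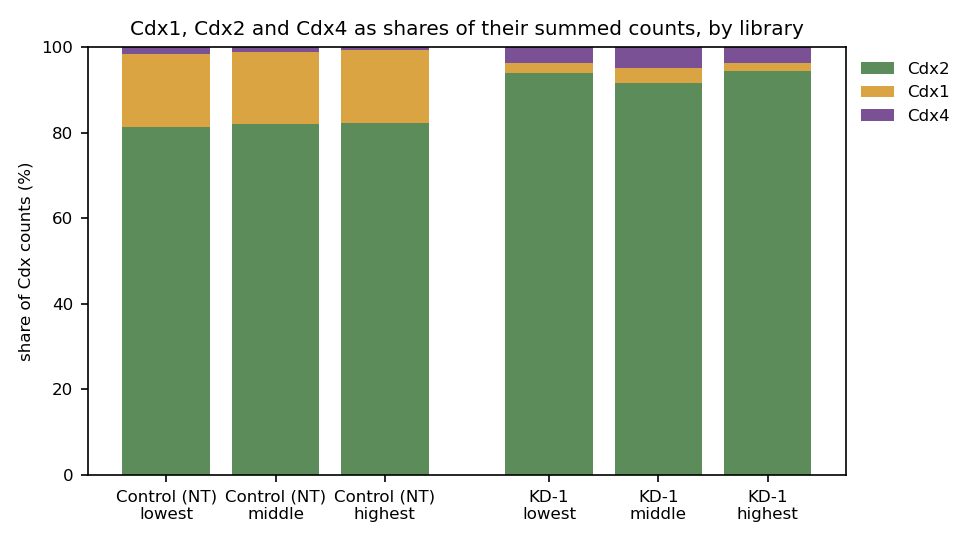
Share of *Cdx1*, *Cdx2* and *Cdx4* in the summed *Cdx* counts of each library, in percent, as stacked bars with *Cdx2* at the bottom and *Cdx4* at the top. *Cdx1* fills 16.8% to 17.0% of the bar in the Control libraries and 1.99% to 3.39% in the KD-1 libraries.

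In the presomitic branch, *Tbx6* encodes the T-box factor that turns neuromesodermal progenitors towards mesoderm and away from a neural fate. *Tbx6* (ENSMUSG00000030699, GRCm39 chr7:126380655-126384732, plus strand) had 11, 29 and 38 counts in Control and 12, 12 and 18 counts in KD-1, or 0.531, 0.858 and 0.686 CPM against 0.286, 0.276 and 0.207 CPM. All KD-1 libraries lay below all Control libraries, at a low level in both. *Tbx6* was 2.76-fold lower in KD-1 (0.692 ± 0.164 against 0.256 ± 0.0429 CPM, SD, n = 3), with a log2 fold change of -1.47 (SE 0.38, 95% interval -2.33 to -0.61, edgeR adjusted p = 0.00842), and 4.77% of all genes tested fell by more. Without the KD-1 library of highest depth the log2 fold change was -1.29 and the call was lost (edgeR adjusted p = 0.0642). *Msgn1*, which encodes mesogenin 1, a bHLH factor of presomitic mesoderm (ENSMUSG00000047002, GRCm39 chr12:11258361-11258973, minus strand), had 0, 0 and 3 counts in Control and 0 in every KD-1 library. Both groups lay at or under the limit, so no fold change is given, and with no filter it was not called (edgeR adjusted p = 0.195). The 2 genes that define presomitic mesoderm were thus at low levels or near 0 in both groups on day 5.

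Relative to *T* in the same library, which removes the scaling between libraries, *Tbx6* gave 10.2, 9.93 and 11.0 counts for every 100 counts of *T* in Control and 4.90, 5.48 and 3.85 in KD-1. The log2 ratio was lower by 1.14 in KD-1 with no overlap (two-sided exact permutation p = 0.1, the smallest possible). Ratios of 3 further members, chosen after their values were seen, did not overlap either (exact permutation p = 0.1 each). These members already did not overlap in CPM, so the lack of overlap in their ratios is not a separate result. *Nkx1-2* gave 368, 190 and 276 counts per 100 of *T* in Control and 591, 666 and 591 in KD-1. *Cdx2* gave 469, 350 and 420 in Control and 204, 210 and 213 in KD-1, and *Eomes* gave 52.8, 32.2 and 48.0 in Control and 82.4, 103 and 77.3 in KD-1. Without the Control library of middle depth, the differences in log2 ratio were -1.18 for *Tbx6*, 0.95 for *Nkx1-2* (1.20 with it), -1.09 for *Cdx2* (-0.97 with it) and 0.79 for *Eomes* (1.00 with it). These counts were not divided by gene length, so only the change of 1 ratio between the groups can be read from them. The same ratio of *Msgn1* could not be formed, because of its counts of 0. With the 3 *Cdx* shares, 7 exact tests were run, and no adjustment can bring them under the threshold.

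**Figure D4:**
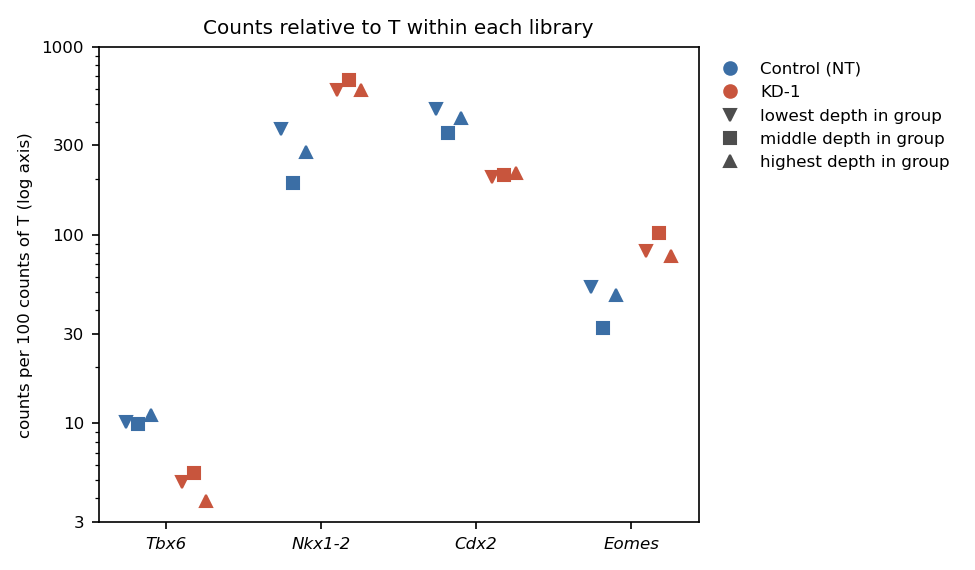
Counts of *Tbx6*, *Nkx1-2*, *Cdx2* and *Eomes* per 100 counts of *T* in each library, on a log axis, with 1 point per library (colour gives the group and shape the depth within it). The groups do not overlap for any of the 4 genes, with *Tbx6* at 9.93 to 11.0 in Control and 3.85 to 5.48 in KD-1.

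The *Cdx* shares above and the most abundant gene named for each list below rest on counts or CPM not divided by gene length. The order of the members was instead read from counts per kilobase of merged exon, scaled to the same total per library, like TPM values. In Control, *Cdx2* was highest at 35.1 ± 3.37, followed by *Nkx1-2* at 15.7 ± 1.40, and then by *Cdx1* at 8.32 ± 0.719 and *T* at 7.87 ± 1.93, whose ranges overlapped (SD, n = 3). *Eomes* followed at 2.03 ± 0.139, *Tbx6* at 1.14 ± 0.254 and *Cdx4* at 0.432 ± 0.141, and *Msgn1*, *Mixl1* and *Mesp1* had means under 0.1 and overlapping ranges. In KD-1, *Nkx1-2* stood first at 33.2 ± 1.48, ahead of *Cdx2* at 16.4 ± 0.690, *T* at 7.11 ± 0.410 and *Eomes* at 3.75 ± 0.459, none of which overlapped its neighbour. *Cdx4* at 0.640 ± 0.0966, *Cdx1* at 0.511 ± 0.137, *Tbx6* at 0.469 ± 0.0803 and *Mixl1* at 0.436 ± 0.106 overlapped, each with the next. *Cdx2* and *Nkx1-2* thus exchanged the first 2 places, and *Cdx1* moved from the third place to the group of lowest detected members.

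Genes that act around the members were counted from lists that were also written with earlier results known. Some genes, such as *Fgf8*, *Sp5*, *Cer1* and *Mesp2*, stand in several lists and are counted in each, so the lists are not separate results. Of 17 tested streak and nascent mesoderm genes (20 in the list), 5 were higher and 8 lower in KD-1, with a median log2 fold change of -0.45. The WNT ligand *Wnt3*, which starts the streak, was 3.09-fold higher (edgeR adjusted p = 0.00025) and the Nodal co-receptor *Cripto*, the most abundant gene of the list, 3.10-fold higher (edgeR adjusted p = 1.6e-07). *Cer1*, a secreted antagonist of Nodal, BMP and WNT, was called lower, from 14.6 ± 0.651 to 0.0460 ± 0.0461 CPM (edgeR adjusted p = 1.8e-07). Its counts in the KD-1 libraries were 0, 2 and 8, so no fold change is given. *Snai1*, which drives the epithelial to mesenchymal transition of streak cells, was 10.9-fold lower (edgeR adjusted p = 0.00044), with 11, 5 and 5 counts in KD-1.

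Of the 21 tail bud and neuromesodermal genes, all tested, 7 were higher and 7 lower, with a median log2 fold change of 0.11. *Sox2*, the neural and pluripotency factor that neuromesodermal progenitors carry beside T, was 4.66-fold higher in KD-1 and the most abundant gene of the list (114 ± 19.5 against 531 ± 14.7 CPM, edgeR adjusted p = 8.2e-07). *Notum*, a secreted WNT inhibitor and WNT target, was 5.16-fold higher, and *Sp5*, a WNT target, 2.31-fold higher (edgeR adjusted p = 2.9e-06 and 0.0099). *Cyp26a1*, which degrades retinoic acid in the tail bud, was 14.2-fold lower and *Fgf8*, its main FGF ligand, 6.03-fold lower (edgeR adjusted p = 0.00014 and 0.0010). In KD-1 the former had 1, 9 and 19 counts and the latter 8, 3 and 16, in part at or under the limit of 3, so these folds are uncertain. *Wnt3a*, the WNT ligand of the tail bud, measured 0.694 ± 0.325 CPM in Control and 1.21 ± 0.0720 CPM in KD-1 and was not called (edgeR adjusted p = 0.054). The WNT effector *Lef1* and the WNT feedback gene *Axin2* were not called either, at log2 fold changes of 0.15 and 0.07 (edgeR adjusted p = 0.057 and 0.42).

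Of 19 tested presomitic and segmentation genes (20 in the list), 3 were higher and 14 lower, with a median log2 fold change of -1.95. The list also holds factors of the somites and paraxial mesoderm, so this median is not that of the clock genes alone. The falls were led by *Meox1* and *Foxc2*, factors of the somites and paraxial mesoderm, which measured 371 ± 16.7 and 19.7 ± 5.65 CPM in Control and 0.423 ± 0.0313 and 0.0589 ± 0.0526 CPM in KD-1 (SD, n = 3, edgeR adjusted p = 2.1e-10 and 4.4e-07). *Hes7*, the oscillating repressor of the clock, had 16, 9 and 26 counts in Control and 1, 6 and 0 counts in KD-1 and was called lower (edgeR adjusted p = 0.012), and *Mesp2*, which sets somite borders, was 2.49-fold lower (edgeR adjusted p = 0.033). The Notch ligand *Dll1* was not called, at 33.6 ± 2.67 and 29.8 ± 1.19 CPM (log2 fold change -0.17, edgeR adjusted p = 0.081). *Nrarp*, a Notch feedback inhibitor, and *Epha4*, an ephrin receptor that lies on chromosome 1, were 2.15-fold and 2.05-fold higher.

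Of the T-box genes other than the members, 8 of 14 were tested, with 2 higher, 4 lower and a median log2 fold change of -0.56. *Tbx4*, a limb factor, and *Mga*, a large T-box repressor and the most abundant of the list, were 3.47-fold and 1.73-fold higher. *Tbx18*, which marks the anterior part of somites, was at 9.67 ± 0.979 CPM in Control and 0.0663 ± 0.0305 CPM in KD-1, and *Tbx2* was 14-fold lower (edgeR adjusted p = 1.2e-07 and 0.00010). The KD-1 counts of *Tbx2* were low, at 5, 4 and 7.

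**Figure D5:**
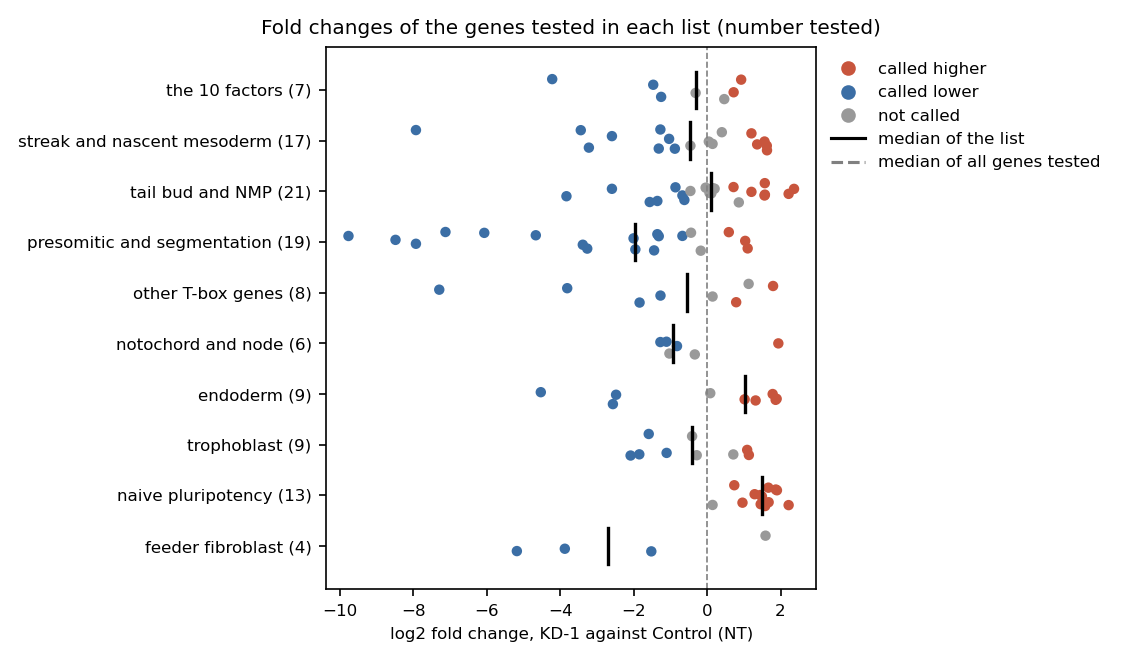
Log2 fold change of KD-1 over Control (NT) for each tested gene of the members and of the 9 lists, with 1 point per gene coloured by its call, a bar at the median of each list and a dashed line at the median of all genes tested. The presomitic and segmentation list has a median of -1.95 and the naive pluripotency list one of 1.49.

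Markers of other cell types, several of which express 1 or more of the members, also differed between the groups. Of the 13 naive pluripotency genes, 12 were higher in KD-1 and 1 was not called, with a median log2 fold change of 1.49. Their summed level was 1554, 1665 and 1581 CPM in the Control libraries and 3901, 3856 and 3936 CPM in the KD-1 libraries, led by *Dppa5a* at 731 ± 13.0 and 1222 ± 33 CPM. *Nanog* was 3.18-fold higher (109 ± 5.74 against 347 ± 11.5 CPM), *Prdm14*, which lies on chromosome 1, 3.74-fold higher, and *Sox2*, which this list also holds, is given above. The part of these markers in the values of the members was not tested.

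Of 9 tested trophoblast genes (12 in the list), which bear on *Cdx2* and *Eomes*, 2 were higher and 4 lower, with a median log2 fold change of -0.41. Their summed level was 29.0, 36 and 30.4 CPM in Control and 55.3, 54.9 and 56.8 CPM in KD-1, most of it from *Tfap2c*, which naive and germ cells also express and which was 2.13-fold higher. *Bmp4* was 2.20-fold higher, and *Cyp11a1* and *Esx1* were 4.24-fold and 3.6-fold lower. *Elf5*, the defining factor of trophoblast stem cells, had 9, 4 and 13 counts in Control and 11, 17 and 46 counts in KD-1 and was not called (edgeR adjusted p = 0.26), and *Tpbpa* had 0 counts in all libraries.

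Of 9 tested endoderm genes (13 in the list), which bear on *Eomes* and *Mixl1*, 5 were higher and 3 lower, with a median log2 fold change of 1.02. Their summed level was 208, 247 and 222 CPM in Control and 562, 560 and 565 CPM in KD-1, with *Trh* the most abundant at 130 ± 13.1 and 265 ± 4.45 CPM. The largest rises were in *Apela* and *Epcam*, 3.72-fold and 3.65-fold, which pluripotent cells also express. *Cdh1* and *Cxcr4*, the latter on chromosome 1, were 3.45-fold and 2.50-fold higher. The endoderm factor *Foxa1*, with 7, 3 and 13 counts in KD-1, was 5.92-fold lower, and *Gata4* was 5.58-fold lower. The summed level thus follows the most abundant genes of the list and does not measure the amount of endoderm. The defining factor *Sox17* had 4, 9 and 9 counts in Control and 0, 0 and 1 counts in KD-1, and *Foxa2* had 2, 1 and 1 counts in Control and 6, 5 and 9 counts in KD-1. Both were too low to be tested.

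Of 6 tested notochord and node genes (10 in the list), which bear on *T*, 1 was higher and 3 were lower, with a median log2 fold change of -0.92. Their summed level was 57.2, 80.1 and 64.6 CPM in Control and 53.3, 50.5 and 50.1 CPM in KD-1, and as for *T* the highest value was in the Control library of middle depth. *Col2a1*, a cartilage and notochord collagen, supplied most of it and was not called (54.8 ± 9.71 against 43.5 ± 1.42 CPM). The cilia factor *Foxj1* was 3.84-fold higher, the BMP antagonist *Chrd* and the keratin *Krt18* were 2.42-fold and 2.15-fold lower, and *Noto*, the defining node factor, had 0 counts in all 6 libraries. Fibroblast genes were listed with carried-over feeder cells in mind, which the paper's colony assay sets out to remove by pre-plating before seeding. The list cannot tell feeder cells from cells of the gastruloids that express the same genes. Of 4 tested fibroblast genes (8 in the list), 3 were lower and 1 was not called, with a median log2 fold change of -2.70. Their summed level was 5.35, 4.11 and 5.61 CPM in Control and 1.00, 1.26 and 0.887 CPM in KD-1, and *Acta2*, the most abundant in Control, measured 1.51 ± 0.670 CPM there and 0.0310 ± 0.0351 CPM in KD-1. *Col1a2* was 14.7-fold lower, an uncertain fold at 3, 6 and 6 counts in KD-1. *Thy1*, which was not called, was the most abundant in KD-1 (0.132 ± 0.127 against 0.451 ± 0.112 CPM, edgeR adjusted p = 0.083). The part of these 4 lists in the values of the members was not tested.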

How the data were processed

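TruSeq libraries of total RNA were read from both ends on a NextSeq, and Salmon (version 1.1, per the submitters' processing notes) was used for quantification against a Gencode gene model. The authors deposited the estimated counts per Ensembl gene as whole numbers, without normalization. The species series and genome build of that model, the summing to genes and the use of strand are not given in the sources used here, so reads of overlapping or antisense genes (*T*, *Eomes*, *Nkx1-2*, *Msgn1*) cannot be assigned with certainty. Columns were matched to groups, not to numbered samples. GENCODE vM39 matched 35222 of 35565 identifiers.

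Counts were tested with edgeR 4.0.16 in R 4.3.3 (filterByExpr, TMM, robust glmQLFit and glmQLFTest, condition only), with Benjamini-Hochberg adjustment over 15110 genes. Of 18 alternatives, 6 left out 1 library, 1 blocked by column suffix, and others used DESeq2 1.42.0, limma 3.58.1, other scalings, filters and thresholds. Libraries of the same group all differed beyond sampling noise (chi-square test). The 3 libraries of a group are labelled biological replicates of 1 line.

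The members and lists were chosen with earlier results of these data known. Besides the members, the rule named from each list, among its called genes, the 2 that rose and the 2 that fell most, the most abundant gene, and *Wnt3a*, *Fgf8*, *Cyp26a1*, *Sp5*, *Lef1*, *Axin2*, *Dll1*, *Hes7*, *Mesp2*, *Sox2*, *Foxa2*, *Sox17*, *Noto*, *Elf5* and *Nanog*. *Fgfr2* was named for its overlap with *Nkx1-2*, and *Tpbpa* (counts of 0), *Thy1*, *Cdh1*, *Cxcr4* and *Gata4* were chosen after their values were seen. One gene that the rule named is not reported here.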

Additional observations from a re-analysis of the deposited data

How the results depend on the processing

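Of 126 values of the 7 tested members under 18 alternatives, 122 kept their direction and their side of the threshold, 4 lost the call (*Tbx6*, *Nkx1-2* and *Eomes*, as given above) and 0 reversed. The members called higher numbered 0 when the log2 fold change had to pass 1 (12.9% of all genes tested were called higher) and 1 with glmTreat against 1.5-fold (13.8%). With at least 10 counts in every library, the streak and tail bud lists had 4 genes lower each, the T-box list 1 higher and 1 lower, the notochord list 0 higher, the endoderm list 1 lower and the fibroblast list 0 lower. Fewer genes of each list were tested there, which does not cover every lost call: the tail bud list had 19 in place of 21 tested and 4 in place of 7 lower. The share of all genes called under that filter is not given, so its list counts cannot be read against it. With a log2 fold change over 1, the tail bud list had 4 lower and the T-box list 1 higher, as it had with glmTreat. With DESeq2 or with no filter, which test more genes, the endoderm and fibroblast lists had 6 lower each. The share of all genes called lower in these fits is not given, so these counts cannot be read against it. Leaving out 1 library at a time gave 0 to 1 fibroblast genes higher and 4 to 6 lower. Neither the number of list genes tested nor the share of all genes called lower is given for these fits. Their counts can therefore not be read as a stronger fall. Per kilobase of exon, the differences in *Cdx1* and *Cdx2* share were -16.0 and 13.4 points. Depth limits *Tbx6*, *Cdx4*, *Mixl1*, *Mesp1* and *Msgn1*, each with at most 121 counts in all.

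The column names of both groups share suffixes, which are not the numbers of the sample labels. Deviations from the group means correlated at -0.01, -0.03 and 0.05 between libraries of the same suffix, over the 15110 genes tested. Not every library correlated best with the library of its own suffix. With 3 libraries per group, these values cannot decide whether libraries of the same suffix were made together. A fit with this suffix as a replicate block, chosen after seeing the data, called 5493 genes in place of 5704, and 2 of the members higher and 3 lower, as without it. The genes called lower numbered 7 in place of 8 in the streak list, 13 in place of 14 in the presomitic list, and 3 in place of 4 in the T-box and trophoblast lists, and the other counts of the lists stayed as they were.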
